A study of Mus musculus with 8 samples.

Results

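The BCL2 family was examined in the livers of tunicamycin-treated mice with and without METTL14, through 10 of its genes chosen by symbol among the 16133 genes of the authors' table. The family decides whether the outer membrane of the mitochondrion is opened, the step that releases cytochrome c and commits a cell to apoptosis. Its multidomain pro-death members Bax, Bak1 and Bok form the pores. Its BH3-only members Bid, Bcl2l11 (BIM), Bmf and Bad carry stress signals to the products of Bax and Bak1. Its survival members Bcl2, Bcl2l1 (BCL-XL) and Mcl1 hold BAX, BAK and the BH3-only proteins in check. In the liver, BCL-XL and MCL1 are known as the main survival members of hepatocytes, and BID links death receptors on the cell surface to the mitochondrial route. All 10 genes were tested in the authors' comparison, and 5 of them had at least 1 m6A peak in either genotype.

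The KO group (METTL14Alb in the labels) was compared with the WT group (METTL14f/f, floxed mice). METTL14 and METTL3 together make up the core enzyme that adds N6-methyladenosine (m6A) to mRNA. The name of the KO line and the liver-knockout wording of the design point to a deletion driven by the albumin gene's promoter, which is active chiefly in hepatocytes, so the other cells of the liver should keep the gene. Animals of both genotypes had been injected intraperitoneally with tunicamycin, a blocker of N-glycosylation that stresses the endoplasmic reticulum, at 2 mg/kg for 24 hours. Untreated livers are not part of these 8 libraries, and neither age nor sex is given. Each genotype had 2 input libraries of fragmented polyadenylated RNA and 2 libraries of the same kind of RNA after precipitation with an m6A antibody. Whether paired libraries of a group stem from different animals is not in the labels, and every p-value therefore measures the spread between these libraries alone.

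Expression was read from the 4 input libraries, named A and B within each genotype because the values do not tell their replicate numbers. Their estimated totals were 12680477 (KO A), 12301509 (KO B), 16822499 (WT A) and 13497265 reads (WT B). A level is given as a normalized read count, the read count divided by the authors' size factor of the library. The fold change is read as KO over WT. The authors' deposited table does not name its numerator, and every direction here rests on the reading that follows. Among genes whose mean count reached 100, 347 had a deposited log2 change above 2, and of these 156 were in the KO peak list only and 0 in the WT peak list only. Of 403 such genes below -2, 30 were in the KO peak list only and 46 in the WT peak list only. A gene is called higher or lower in KO when the adjusted p of the authors' deposited table (DESeq2, Benjamini-Hochberg over 14257 genes) is under 0.05.

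Mettl14 itself had 64.6 and 62.0 normalized counts in KO libraries, against 79.8 and 99.7 in WT libraries. Its difference did not pass the test (log2 change -0.50 ± 0.41, SE, adjusted p = 0.342 in the authors' deposited table). Reads over the whole gene do not single out a deleted exon, so this level does not check the labels.

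The promoters of the 5 members that were higher in KO are shown first, because these genes moved together. Each sequence holds the 250 bases before a start annotated by RefSeq (GRCm38.p6, the mm10 build), written 5′ to 3′ along the gene. That start need not be the outer end of the annotated gene. The Bid window lies mostly inside the span given for Bid below, which ends at 120917062, and the Bax window reaches slightly into that of Bax. The Bcl2l1 window lies wholly inside the span given for Bcl2l1 below, which ends at 152833803. Capitals mark a p53 decamer motif, an E-box (CACGTG) and GC boxes (GGGCGG), searched on both strands. For Bcl2l1, which has 3 annotated starts in the promoter table, the window lies before the start nearest to most of its peaks.
Bax (chr7:45466899-45467148, minus strand): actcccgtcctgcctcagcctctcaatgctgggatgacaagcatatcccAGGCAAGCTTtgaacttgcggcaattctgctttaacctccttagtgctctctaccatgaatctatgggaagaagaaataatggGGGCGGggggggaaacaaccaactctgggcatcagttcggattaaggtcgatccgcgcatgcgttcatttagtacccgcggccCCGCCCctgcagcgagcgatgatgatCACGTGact
Bak1 (chr17:27028628-27028877, minus strand): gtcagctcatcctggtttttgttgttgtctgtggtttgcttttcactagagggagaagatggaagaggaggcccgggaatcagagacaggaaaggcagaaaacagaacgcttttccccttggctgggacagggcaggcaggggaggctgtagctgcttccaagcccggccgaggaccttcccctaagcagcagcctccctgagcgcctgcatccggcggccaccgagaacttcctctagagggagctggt
Bok (chr1:93685325-93685574, plus strand): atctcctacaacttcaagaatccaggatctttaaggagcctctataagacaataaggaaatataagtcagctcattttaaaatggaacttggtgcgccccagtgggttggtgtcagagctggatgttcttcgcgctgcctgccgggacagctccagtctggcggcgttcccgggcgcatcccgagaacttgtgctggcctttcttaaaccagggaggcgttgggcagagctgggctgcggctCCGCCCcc
Bid (chr6:120916825-120917074, minus strand): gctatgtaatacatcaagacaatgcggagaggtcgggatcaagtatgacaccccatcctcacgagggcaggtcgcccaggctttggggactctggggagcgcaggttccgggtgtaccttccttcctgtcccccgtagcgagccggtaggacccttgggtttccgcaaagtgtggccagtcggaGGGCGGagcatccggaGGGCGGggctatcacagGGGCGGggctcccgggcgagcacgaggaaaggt
Bcl2l1 (chr2:152830718-152830967, minus strand): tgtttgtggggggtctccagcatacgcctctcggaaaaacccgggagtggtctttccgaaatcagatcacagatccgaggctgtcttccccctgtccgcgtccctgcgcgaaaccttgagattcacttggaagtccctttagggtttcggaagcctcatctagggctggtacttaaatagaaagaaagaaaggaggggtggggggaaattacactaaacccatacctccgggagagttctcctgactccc

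The Bax promoter held the p53 decamer 201 bases and an E-box 9 bases before the start, with GC boxes at 118 and 35 bases. The Bid promoter had GC boxes 66, 50 and 33 bases before its start, and the Bok promoter had 1 at 8 bases. The windows shown for Bak1 and Bcl2l1 held none of the marked motifs. Among all 32817 promoter windows of this length, 7.12% held the p53 decamer, 6.02% the E-box and 32.7% a GC box. Of the 16 windows of the 10 members, 2, 1 and 8 did. The composite motif of ATF4 and CHOP (TGATGNAAN, both strands), the transcription factors of the stress response, was in 3.44% of all windows and in 0 of the 16. The core of the cAMP response element (TGACG) was in 17.7% of all windows and in 2 of the 16. These matches describe letters only, and say nothing of binding.

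The pro-death genes that form pores were higher in KO, together with the BH3-only gene Bid and the survival gene Bcl2l1. Of the 10 members 5 were called higher, where 20.4% of all tested genes were called higher, and 0 were called lower, where 22.2% of all tested genes were. The median log2 change of the 10 members was 0.86 in the authors' deposited table, beside 0.046 for all tested genes. In 9 of the 10 members the KO and WT libraries did not overlap. The same held for 78.9% of the 12646 genes whose mean count reached 10, so that lack of overlap does not set the family apart. With KO A or KO B left out, limma called 0 of 14056 genes, so every call of a member was lost as well. Without KO A the limma log2 change was 1.84 for Bax, 1.70 for Bcl2l1, 1.29 for Bid, 1.25 for Bok and 0.50 for Bak1. Without KO B it was 1.77 for Bax, 1.37 for Bcl2l1, 1.53 for Bid, 1.53 for Bok and 0.92 for Bak1.

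**Figure D1:**
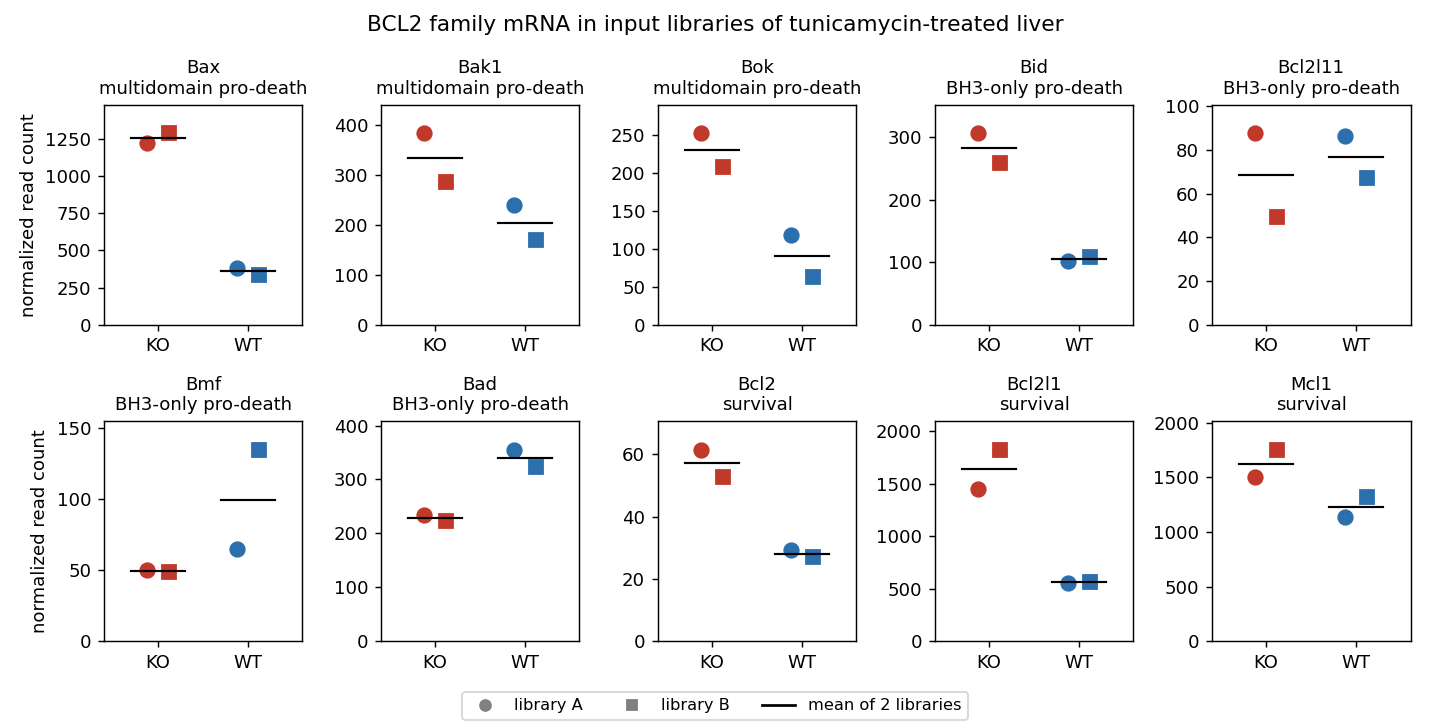
Normalized read counts (linear axes that start at 0) of the 10 BCL2 family members in the 2 KO and 2 WT input libraries; circles are library A, squares library B, lines the mean of 2 libraries. KO points lie above WT points for Bax, Bak1, Bok, Bid, Bcl2, Bcl2l1 and Mcl1 and below them for Bmf and Bad, and only Bcl2l11 overlaps.

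Bax, whose protein oligomerizes in the outer mitochondrial membrane, lies at chr7:45461695-45466903. It had 1224 and 1288 normalized counts in KO libraries and 382 and 338 in WT libraries. The spread within each genotype was small beside the gap between them, and the fold between genotypes was 3.49 in the authors' deposited table (log2 change 1.80 ± 0.21, SE, adjusted p = 1.52e-16). That change stood above those of 89.0% of all tested genes.

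Bak1, the pore former held ready in the mitochondrial membrane, lies at chr17:27019812-27028627. It had 383 and 286 normalized counts in KO libraries and 239 and 170 in WT libraries, so the lower KO library stood only slightly above the higher WT library. The authors' deposited table gives a log2 change of 0.71 ± 0.29 (SE, adjusted p = 0.0387), or 1.63-fold. This call was lost when WT B was left out (limma, log2 change 0.47). It was also lost without KO A (0.50) or KO B (0.92), where no gene was called. The annotated gene Ggnbp1 spans all of Bak1, and reads that it shares with Bak1 cannot be placed from the table. Ggnbp1 had 90.1 and 157 normalized counts in KO libraries and 156 and 106 in WT libraries, and was not called (log2 change -0.09 ± 0.38, adjusted p = 0.876 in the authors' deposited table).

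Bok, a relative of BAX and BAK found largely at the endoplasmic reticulum, lies at chr1:93685575-93695770. It had 252 and 207 normalized counts in KO libraries and 118 and 63.3 in WT libraries. Its WT libraries differed 1.86-fold from each other, the widest spread of the pore formers, and the genotypes were still apart (log2 change 1.34 ± 0.36, SE, adjusted p = 7.44e-04 in the authors' deposited table, 2.52-fold). In limma the change was 1.84 with WT A left out, 0.95 with WT B left out, 1.25 with KO A left out and 1.53 with KO B left out. The call was lost without KO A or KO B.

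Among the BH3-only members, Bid alone was called. Bid (chr6:120893119-120917062), the substrate that caspase-8 cleaves into an activator of BAX and BAK, had 306 and 258 normalized counts in KO libraries and 101 and 109 in WT libraries. Both KO libraries were more than double either WT library, a change of 1.42 ± 0.30 on the log2 scale (SE, adjusted p = 1.19e-05, 2.69-fold, in the authors' deposited table).

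Bcl2l11, which encodes BIM, a BH3 activator that can neutralize every survival member, lies at chr2:128126038-128162547. It had 87.7 and 49.3 normalized counts in KO libraries and 86.3 and 67.3 in WT libraries. The KO libraries lay on either side of both WT libraries, and no difference was called (log2 change -0.17 ± 0.45, SE, adjusted p = 0.806 in the authors' deposited table). The 95% interval of that change ran from -1.05 to 0.72, which holds values on both sides of 0. The annotated gene Acoxl shares 215 bases with Bcl2l11 and is not in the authors' deposited table.

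Bmf, whose product is held on the cytoskeleton in resting cells, lies at chr2:118528757-118549686. It had 50.2 and 48.4 normalized counts in KO libraries and 64.7 and 135 in WT libraries. The KO libraries were close together and the WT libraries differed 2.08-fold from each other. The authors' deposited table gives a log2 change of -1.01 ± 0.46 (SE, adjusted p = 0.0662), which did not pass the test. The value depended on WT B: it was -0.38 without that library (limma, adjusted p = 0.369) and -1.43 without WT A (adjusted p = 0.00251).

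Bad, which is kept inactive by survival kinases through 14-3-3 binding, lies at chr19:6941861-6951905. It had 233 and 223 normalized counts in KO libraries and 355 and 323 in WT libraries, with little spread within either genotype. Its log2 change was -0.57 ± 0.26 (SE, adjusted p = 0.0579 in the authors' deposited table), just outside the threshold. In limma on the recovered counts the same change passed (-0.57, adjusted p = 0.0181), where 24% of genes were lower. The annotated start of Bad shares 590 bases with Gpr137, which was lower in KO by its own test (log2 change -1.13 ± 0.24, adjusted p = 1.80e-05 in the authors' deposited table). How much of either count comes from that stretch was not tested.

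The survival member with the clear change was Bcl2l1 (chr2:152758732-152833803), whose product BCL-XL binds BAX, BAK and BH3-only proteins. It had 1453 and 1821 normalized counts in KO libraries and 557 and 566 in WT libraries. The lower KO library was well over double the WT libraries, and the log2 change was 1.54 ± 0.21 (SE, adjusted p = 2.13e-12, 2.92-fold, in the authors' deposited table). The annotated gene Cox4i2 shares 6308 bases with Bcl2l1 and is not in the authors' deposited table. Reads that it shares with Bcl2l1 cannot be placed.

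Mcl1 (chr3:95656944-95663179), whose short-lived product guards BAK1 and binds BIM, had 1501 and 1750 normalized counts in KO libraries and 1141 and 1318 in WT libraries. The libraries of the 2 genotypes were separate, but the gap between them was about as wide as the spread within each. The log2 change of 0.40 ± 0.20 did not pass the test (SE, adjusted p = 0.0896 in the authors' deposited table). Without WT B it was 0.51 and passed (limma, adjusted p = 0.0227).

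Bcl2 (chr1:106538176-106714290), the founding survival gene, was the least covered member. It had 61.4 and 52.7 normalized counts in KO libraries and 29.1 and 26.9 in WT libraries, from 77 and 62 reads in KO and 27 and 20 reads in WT. KO was about double WT with little spread, yet at this depth the log2 change of 1.02 ± 0.54 did not pass (SE, adjusted p = 0.112 in the authors' deposited table). Limma called the same change (0.996, adjusted p = 0.0356), in a fit that called 25.3% of genes higher.

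By role, 3 of 3 pore formers were called higher with a median log2 change of 1.34, as were 1 of 4 BH3-only members (median -0.37) and 1 of 3 survival members (median 1.02), all from the authors' deposited table. Over all tested genes 20.4% were called higher, and the median was 0.046. Bak1, counted among the pore formers, lost its call in limma without WT B (log2 change 0.47). Classes of 3 or 4 genes are small, and no test between them was made. All 3 survival members had positive values, but only Bcl2l1 passed. Taking the 7 pro-death members as 1 group, 4 were called higher and their median was 0.71. The summed level of the pro-death members was 2537 and 2360 normalized counts in KO libraries and 1346 and 1205 in WT libraries. Bax supplied 1224 and 1288 of these counts in KO libraries and 382 and 338 in WT libraries, while the BH3-only members alone summed to 677 and 579 in KO libraries and 607 and 634 in WT libraries, which overlap. The sum of the survival members was 3016 and 3623 in KO libraries and 1727 and 1911 in WT libraries. The pro-death and survival sums were higher in each KO library than in either WT library. Longer mRNAs give more reads, so these sums do not say how many molecules of each kind were present.

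**Figure D2:**
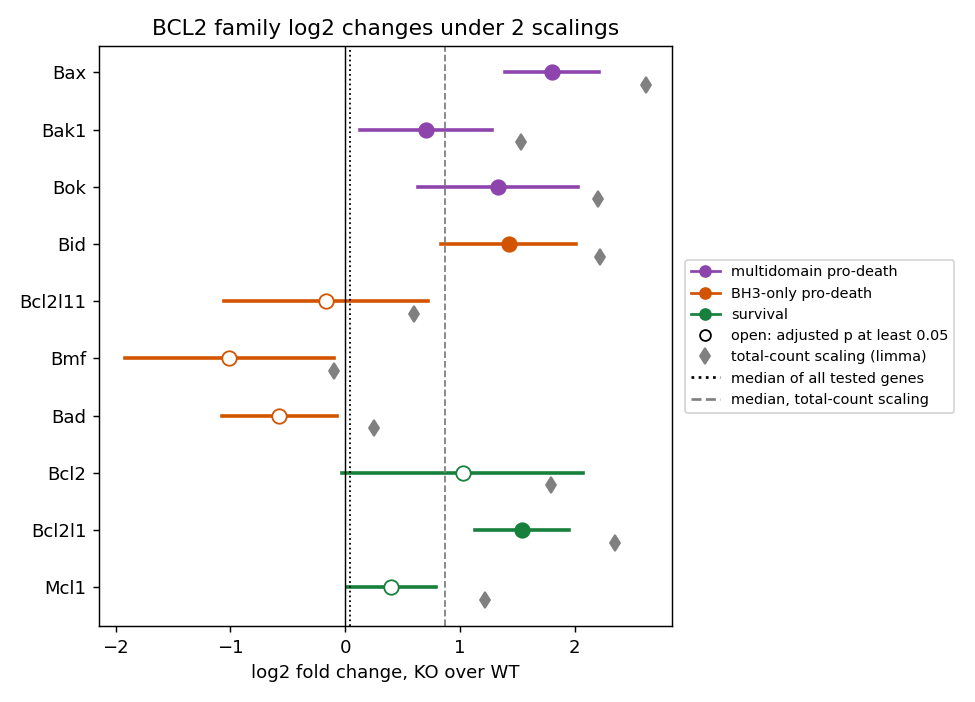
Log2 change of each member, KO over WT, from the authors' deposited table (circles, bars are 95% intervals, open where the adjusted p is at least 0.05), with the limma value after scaling to total counts as grey diamonds and the median of all genes under each scaling as vertical lines. Bax, Bcl2l1, Bid, Bok and Bak1 are filled, and the total-count scaling moves all members to the right by about as much as it moves the median.

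The balance within each library was described by ratios of normalized counts, which do not depend on how libraries are scaled. Bax over Mcl1 was 0.815 and 0.736 in KO libraries and 0.335 and 0.256 in WT libraries, a 2.65-fold difference with no overlap. Bcl2l1 over Mcl1 was 0.968 and 1.04 in KO libraries and 0.489 and 0.429 in WT libraries (2.19-fold, no overlap). In both ratios the gap between genotypes was wider than the spread within either. These ratios restate the levels given above for each gene and are no separate result. How often other pairs of genes do not overlap was not computed.

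Bax and Bcl2l1, the pore former and survival gene with the smallest p-values, kept nearly the same proportion. Bax over Bcl2l1 was 0.843 and 0.707 in KO libraries and 0.685 and 0.598 in WT libraries, 1.21-fold apart, with the lower KO value just above the higher WT value. Bid over Bcl2l1 overlapped between genotypes, at 0.211 and 0.142 in KO libraries and 0.182 and 0.193 in WT libraries. Bak1 over Mcl1 overlapped as well, at 0.255 and 0.163 in KO libraries and 0.210 and 0.129 in WT libraries. A ratio is not a ratio of molecules, because gene lengths were not divided out, and a comparison of 2 against 2 libraries was not tested further.

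The choice of scaling touches every level above. After scaling to total counts in place of the authors' size factors, the median log2 change of all genes moved to 0.87, from 0.065 in limma with those size factors. Genes with recovered counts held 8106716 of the 12680477 estimated reads in KO A and 8012123 of 12301509 in KO B. They held 8332163 of 16822499 in WT A and 6699571 of 13497265 in WT B. The remaining reads of each total were estimated from the deposited mean and log2 change of the other genes. Both libraries of a genotype were given the same level for such a gene, multiplied by their size factors. Reads outside the genes of the authors' table are not in these totals. The part of the other genes, among them the 181 above a mean of 10000, in this shift of scaling was not tested. Under total-count scaling, 58.7% of genes were called higher and 7.55% lower, and 7 of the 10 members were called higher and 0 lower. Bax, Bak1, Bok, Bid, Bcl2, Bcl2l1 and Mcl1 still lay above the median of all genes under that scaling, and Bcl2l11, Bmf and Bad below it. The sign of 2 uncalled members flipped under it, Bad to 0.25 and Bcl2l11 to 0.60 (limma, adjusted p = 0.187 and 0.168).

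For each called member the nearest genes were found by the distance between centred log2 levels over the 4 input libraries, among the 9015 genes whose mean count reached 100. Bax was nearest to Itgav, an integrin subunit (distance 0.056), and to Rell1 (0.067). Bid was nearest to Pitpnm1 (0.033) and Pogk (0.044), and Bcl2l1 to Zfp568 (0.042) and Ripk4 (0.070). Bak1 was nearest to Reln, a gene of hepatic stellate cells (0.053), and Add3 (0.068), and Bok to Ctgf (0.098) and Frmd4a (0.148). Within a distance of 0.3 there were 142 genes for Bid, 111 for Bcl2l1, 108 for Bak1, 99 for Bax and 17 for Bok, so these profiles are shared by many genes.

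The m6A peaks were given by the authors as 1 list per genotype, with 12290 peaks in the KO list and 5586 in the WT list. Each peak carries the authors' own enrichment and p-value, and with 1 list per genotype there is no replicate test. The depth of the antibody libraries is not given in the files used here. The median enrichment was 13.1 over the whole KO list and 24.2 over the whole WT list, so values are read only within a list. In the members there were 13 peaks in 5 genes in the KO list and 9 peaks in 4 genes in the WT list. Among 9335 genes with mean counts in the range of the members, 47.9% had a peak in the KO list and 19.9% in the WT list. The members' 5 of 10 in the KO list was near that background, and their 4 of 10 in the WT list was above it, a description without a test. The background genes were not matched to the members' levels within that range. Bcl2l1 and Mcl1, with mean counts of 1099 and 1428, lie at its upper end, so the WT share does not set the family apart. Bax, Bad, Bcl2l1 and Mcl1 had peaks in both lists, as 17.4% of those genes did. Bak1 had one in the KO list alone, as 30.5% did, and Bok, Bid, Bcl2l11, Bmf and Bcl2 had none, as 49.6% did. Positions are given as deposited in the mm10 build and may be off by 1 base, since the lists use 2 conventions for a peak's end. Lengths are those of the deposited blocks, the aligned parts of a peak without the introns between them.

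**Figure D3:**
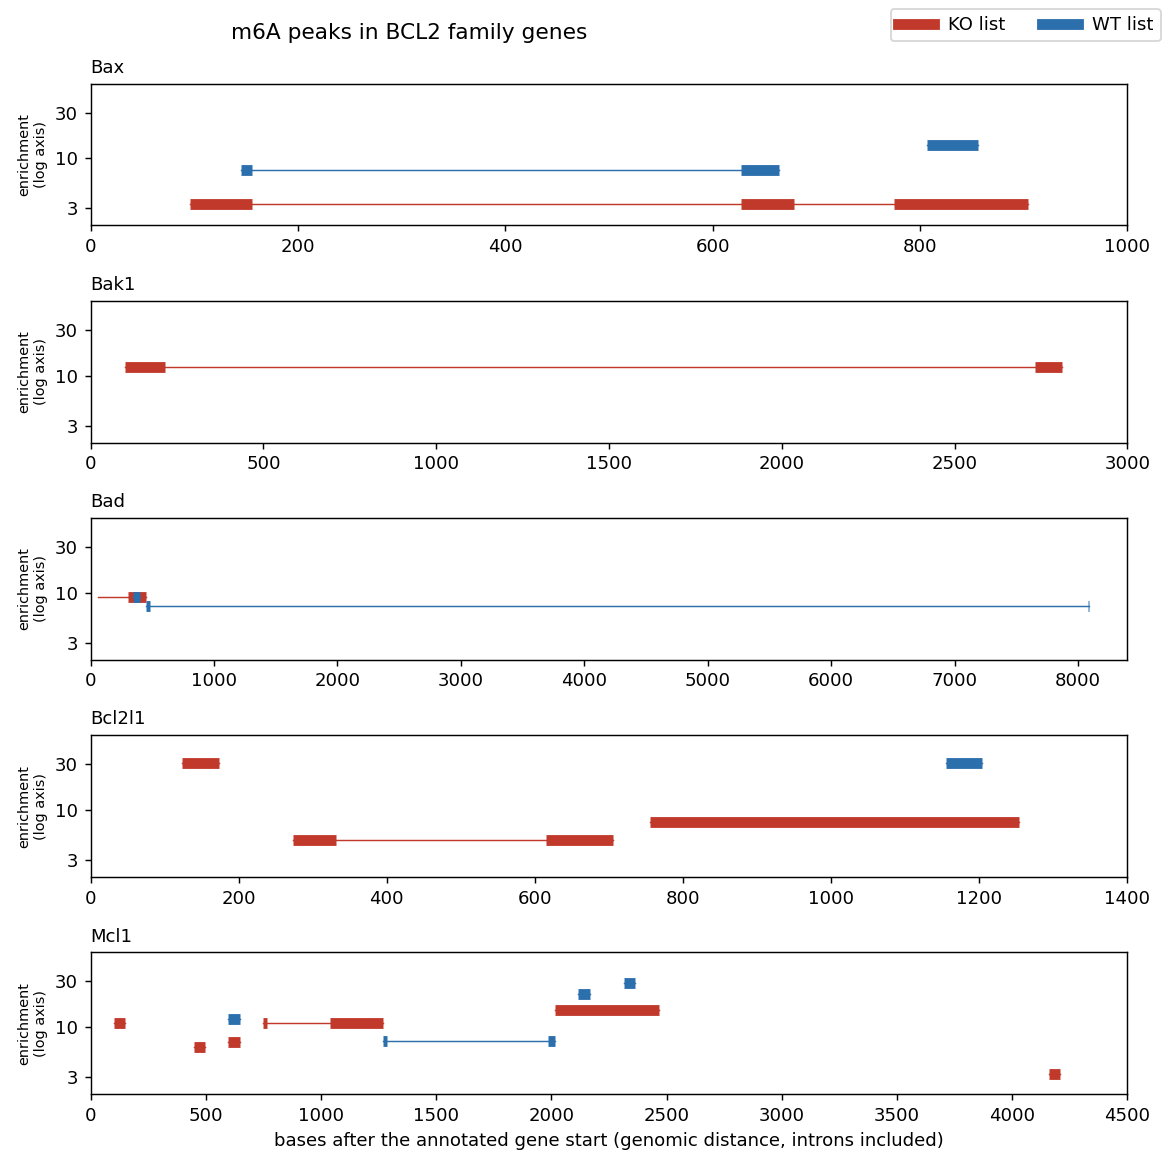
Peaks of the 5 members that have any, drawn by genomic distance in bases from the annotated start that precedes most of them (horizontal) and by the authors' enrichment (vertical, log axis); thick bars are blocks, thin lines the introns between blocks of a peak. The KO list has more peaks than the WT list in Bcl2l1 and Mcl1 and a first peak nearer to the start in the 4 genes with peaks in both lists, while Bak1 has none in the WT list. A KO peak of Bcl2l1 that begins 48549 bases after the start lies beyond the axis.

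Mcl1 held the most peaks, 6 in the KO list and 4 in the WT list. The first KO peak was chr3:95658821-95658870, 100 bases after the annotated start at 95658721, with an enrichment of 11.01. The span given above for Mcl1 begins upstream of that start, at 95656944. KO peaks at chr3:95659169-95659218 and chr3:95659319-95659368 had enrichments of 6.19 and 7.02. The longest KO peaks were chr3:95659468-95659989 in 2 blocks (enrichment 10.97) and chr3:95660738-95661186 in 1 block (14.9). The last was chr3:95662880-95662929, which ended 250 bases before the end of the gene and had the lowest enrichment of the 13 (3.28, the authors' p = 1.63e-04).

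In the WT list Mcl1 had the peak chr3:95659319-95659368 at the same position as in KO, with an enrichment of 12.3. The 2-block WT peak chr3:95659990-95660737 (7.25) abutted KO peaks on either side and was counted as overlapping neither. Short WT peaks at chr3:95660838-95660887 (22.2) and chr3:95661037-95661086 (29.1) both lay inside the long KO peak of 448 bases. For Mcl1 2 of the 6 KO peaks and 3 of the 4 WT peaks overlapped the other list. Over all peaks the shares were 28.3% in the KO list and 75.4% in the WT list. Of genes with a peak, 2.92% had 6 or more in the KO list, and 10.01% had 4 or more in the WT list.

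Bcl2l1 had 4 peaks in the KO list and 1 in the WT list. The KO peak chr2:152830544-152830593, 124 bases after the start, had the highest enrichment of the members' KO peaks (30.9, at percentile 80.2 of the list). Next to it lay chr2:152830012-152830444 in 2 blocks (4.90) and chr2:152829463-152829961 in a single block of 498 bases (7.47). A further KO peak, chr2:152782069-152782168 (4.14), lay 48549 bases after that start. The only WT peak, chr2:152829513-152829562 (30.8), lay within the KO block of 498 bases. The mRNA was 2.92-fold more abundant in KO by the authors' deposited table, and whether the added KO peaks follow from deeper coverage was not tested.

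Bax had 1 peak in the KO list and 2 in the WT list, over the same stretch. The KO peak chr7:45465994-45466802 had 3 blocks with 243 bases and an enrichment of 3.32, at percentile 6.27 of the KO list. The WT peaks were chr7:45466042-45466091 (13.8) and the 2-block chr7:45466234-45466753 (7.56), and both overlapped blocks of the KO peak.

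Bad had 1 peak in the KO list and 2 in the WT list. The KO peak chr19:6942619-6943008 (9.03) in 2 blocks contained the WT peak chr19:6942910-6942959 (9.01). A second WT peak, chr19:6943009-6950651 (7.21), abutted the end of the KO peak and had 2 short blocks with a long intron between them.

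Bak1 had 1 peak, in the KO list. It was chr17:27025816-27028528 (12.2, the authors' p = 6.27e-10), with 2 blocks of 196 bases in all, the first of them 99 bases after the annotated start. It lies where Ggnbp1 overlaps Bak1, and was named Bak1 by the authors. Bok and Bid, which were higher in KO, had no peak in either list.

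Over all members 5 of 13 KO peaks and 7 of 9 WT peaks overlapped a peak of the other list by at least 1 base on the same strand. In the whole lists 28.3% of the 12290 KO peaks and 75.4% of the 5586 WT peaks did, and among genes with peaks in both lists 54.5% of KO peaks and 80.5% of WT peaks did. The members' shares are read against these and set nothing apart. A stricter minimum, at least as much of the shorter peak shared as not, gave the same numbers. The KO peaks covered 2276 deposited bases and the WT peaks 444. Single windows of 49 deposited bases made up 5 of the 13 KO peaks and 6 of the 9 WT peaks. In the whole lists they made up 32.7% of KO peaks and 51.2% of WT peaks. None of the peaks reached into a promoter window.

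In the 4 members with peaks in both lists the first peak lay nearer to the start in the KO list. Its distance from the annotated start that precedes it was 57 bases in the KO list and 348 in the WT list for Bad, and 96 bases in the KO list and 145 in the WT list for Bax. It was 100 bases in the KO list and 598 in the WT list for Mcl1, and 124 bases in the KO list and 1155 in the WT list for Bcl2l1. For Bak1 it was 99 bases in the KO list. A KO peak lay within 150 bases of a start in 5 of 5 members, and a WT peak in 1 of 4, a limit chosen after these values were seen. Among the 2123 genes with peaks and an annotated start in both lists, 70.7% had such a peak in the KO list and 48.8% in the WT list, so the KO list had peaks near a start more often across all those genes too.

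In the wider BCL2 family most genes were not called. Of 14 tested genes outside the 10 members, 2 were called higher, 2 lower and 10 neither, with a median log2 change of 0.44 in the authors' deposited table. These counts are no more than the 20.4% higher and 22.2% lower among all tested genes would give. Bcl2l14 was higher by 2.21 ± 0.69 on the log2 scale (SE, adjusted p = 0.00430 in the authors' deposited table), from 39.8 and 62.0 normalized counts in KO libraries and 7.55 and 14.8 in WT libraries. Bbc3, which encodes the BH3-only p53 target PUMA, was higher by 0.83 ± 0.34 (adjusted p = 0.0336 in the authors' deposited table), with 182 and 165 normalized counts in KO libraries and 85.2 and 110 in WT libraries. The libraries of the 2 genotypes did not overlap in either gene, as in 78.9% of the genes whose mean count reached 10.

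The lower genes were the mitophagy receptors Bnip3 and Bnip3l, which mark mitochondria for removal by autophagy. Bnip3 had 330 and 344 normalized counts in KO libraries and 1866 and 1850 in WT libraries, and its log2 change of -2.46 ± 0.20 (SE, adjusted p = 3.42e-34 in the authors' deposited table) was the widest of the family. Bnip3l had 418 and 467 normalized counts in KO libraries and 1040 and 761 in WT libraries (log2 change -1.03 ± 0.23, adjusted p = 5.63e-05 in the authors' deposited table). They had 1 and 3 peaks in the KO list and 0 in the WT list.

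The uncalled genes of the wider family, with log2 changes from the authors' deposited table, were the survival gene Bcl2l2 (0.11), the BH3-only genes Pmaip1 (0.73), Bik (0.44) and Hrk (2.17), and Bcl2l12 (0.44), Bcl2l13 (-0.20) and Bcl2l15 (-0.12). The survival genes Bcl2a1a (0.49), Bcl2a1b (0.72) and Bcl2a1d (0.43) were not called either, and their near-identical copies make each count uncertain. Hrk had 19.9 and 11.9 normalized counts in KO libraries and 4.31 and 2.69 in WT libraries, and at that depth its change did not pass (adjusted p = 0.119 in the authors' deposited table). Bcl2l10 has no row in the table used here.

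Of 16 tested effectors 3 were higher and 6 lower in the authors' deposited table, with a median log2 change of -0.54, and 2 of the 6 (Aifm1 and Vdac3) turned positive under total-count scaling. The count of higher genes was near the 20.4% of all tested genes, and lower calls took 22.2% of all tested genes. Apaf1, the scaffold of the apoptosome, was higher by 1.94 ± 0.41 (SE, adjusted p = 1.20e-05 in the authors' deposited table), with 155 and 133 normalized counts in KO libraries and 33.4 and 41.7 in WT libraries. Both KO libraries were more than triple either WT library.

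Cycs, which encodes the cytochrome c that BAX and BAK pores release, was lower. It had 558 and 591 normalized counts in KO libraries and 1392 and 1169 in WT libraries (log2 change -1.16 ± 0.21, adjusted p = 1.71e-07 in the authors' deposited table). Vdac1, the channel of the outer membrane, had 1739 and 1833 normalized counts in KO libraries and 3501 and 2998 in WT libraries (log2 change -0.86 ± 0.19, adjusted p = 1.97e-05 in the authors' deposited table). Processed pseudogenes of Cycs can share its reads, which makes its level uncertain.

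**Figure D4:**
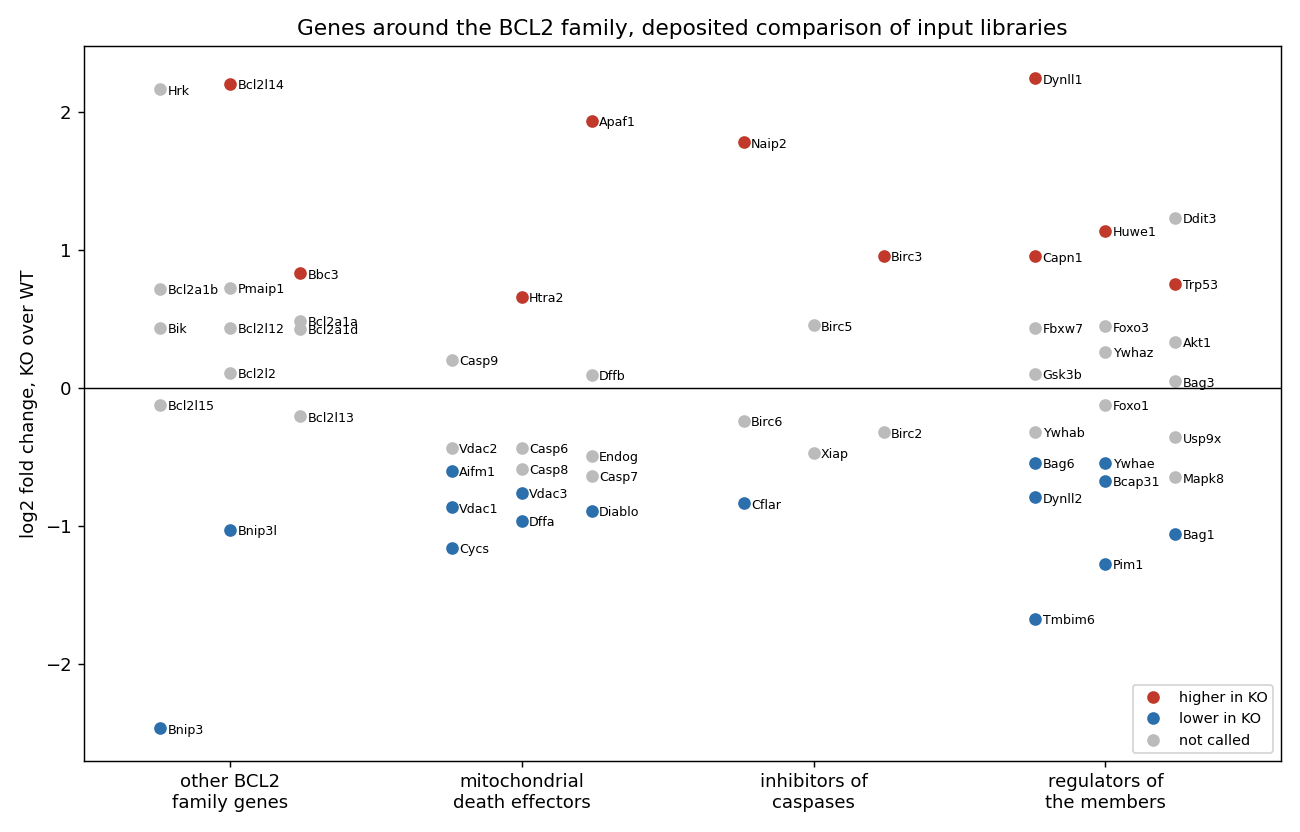
Log2 change (KO over WT, the authors' deposited table) of the tested genes reported here in 4 lists around the BCL2 family, red where called higher in KO, blue where called lower and grey where not called; horizontal spread within a list is for legibility only. Bcl2l14, Apaf1, Naip2 and Dynll1 stand highest among called genes of their lists and Bnip3, Cycs, Cflar and Tmbim6 lowest.

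Of the 7 inhibitors of caspases, 2 were higher and 1 lower in the authors' deposited table, beside 20.4% and 22.2% of all tested genes. Naip2, an inflammasome sensor of that family, had 394 and 377 normalized counts in KO libraries and 111 and 113 in WT libraries (log2 change 1.78 ± 0.27, adjusted p = 9.71e-10 in the authors' deposited table), and near-identical Naip copies make its count uncertain. Birc3, a ubiquitin ligase of the NF-kB pathway, was higher by 0.96 ± 0.32 (adjusted p = 0.00845 in the authors' deposited table). Cflar, which keeps caspase-8 from cleaving BID, had 894 and 1027 normalized counts in KO libraries and 1488 and 1937 in WT libraries (log2 change -0.83 ± 0.21, adjusted p = 3.53e-04 in the authors' deposited table). Under total-count scaling Cflar stood at -0.0036 (limma), and any link between its level and that of Bid was not tested.

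Of 22 tested regulators of the members, 4 were higher and 7 lower in the authors' deposited table, with a median log2 change of -0.035, beside 20.4% higher and 22.2% lower among all tested genes. Of the 6 lower ones with recovered counts, 4 turned positive under total-count scaling (Bag6, Dynll2, Ywhae and Bcap31). Tmbim6, the BAX inhibitor of the endoplasmic reticulum, was lower by the authors' deposited table (log2 change -1.67 ± 0.17, SE, adjusted p = 2.12e-20). Its mean was too high for counts per library to be recovered. Dynll1, the dynein light chain that tethers BIM, had 1087 and 1198 normalized counts in KO libraries and 183 and 300.3 in WT libraries (log2 change 2.25 ± 0.26, adjusted p = 3.14e-17 in the authors' deposited table). Its relative Dynll2, which binds BMF and was named after its value was seen, was lower (log2 change -0.79 ± 0.19, adjusted p = 1.89e-04 in the authors' deposited table), but stood at 0.033 under total-count scaling.

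Huwe1, a ubiquitin ligase that targets MCL1, had 10188 and 11028 normalized counts in KO libraries and 4642 and 4971 in WT libraries (log2 change 1.14 ± 0.17, adjusted p = 4.81e-10 in the authors' deposited table). It carried 14 peaks in the KO list and 1 in the WT list. Bag1, a co-chaperone that binds BCL2, had 883 and 938 normalized counts in KO libraries and 1994 and 1784 in WT libraries (log2 change -1.05 ± 0.19, adjusted p = 3.07e-07 in the authors' deposited table).

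Under total-count scaling (limma) the falls in these lists shrank by about the shift of the median. Bnip3 was still lower, by -1.64 on the log2 scale (adjusted p = 4.88e-05), the one gene of the wider family that was. Bnip3l stood at -0.19, Cycs at -0.33, Vdac1 at -0.039, Cflar at -0.0036 and Bag1 at -0.23, and none of these passed. No effector, caspase inhibitor or regulator with recovered counts was called lower under it.

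Cell-type markers moved between genotypes too. In bulk liver, fewer cells of a type and less RNA per cell cannot be told apart. Among all tested genes 20.4% were called higher and 22.2% lower. Of 8 hepatocyte markers 6 were lower and 1 higher (Apoa1) in the authors' deposited table. Bile duct markers summed to 4247 and 3265 normalized counts in KO libraries and 647 and 792 in WT libraries, with 5 of 6 called higher and Krt7 at 0 in WT B. Most of that sum was Spp1, at 3311 and 2460 in KO libraries and 527 and 696 in WT libraries. Stellate cell and fibroblast markers summed to 9428 and 6771 in KO libraries and 4434 and 3439 in WT libraries, with 4 of 7 higher. The collagen genes weighed heavily in that sum. Col3a1 had 3145 and 1763 in KO libraries and 158 and 143 in WT libraries, and Col1a1 1516 and 908 against 80.9 and 61.9. Dcn, Lrat and Des were not called. Macrophage markers summed to 3967 and 3800 in KO libraries and 3152 and 2299 in WT libraries, with 1 of 6 higher (Cd68) and 2 lower. The higher sum in KO came from Cd68 alone, at 2023 and 2665 in KO libraries and 168 and 207 in WT libraries. The median log2 change of these 6 markers was -0.43 in the authors' deposited table. Endothelial markers overlapped, at 1915 and 1685 in KO libraries and 1939 and 1436 in WT libraries, with 1 of 5 lower.

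The other immune and surface lists were low. Neutrophil markers summed to 175 and 121 in KO libraries and 107 and 265 in WT libraries, with 1 of 3 tested lower and Camp and Mpo at 0 in at least 1 library. T and NK cell markers stood at 24.7 and 23.8 in KO libraries and 44.2 and 26.9 in WT libraries, and B cell markers at 13.5 and 18.7 in KO libraries and 44.2 and 21.5 in WT libraries, with 0 called. Mesothelial markers stood at 19.9 and 22.9 in KO libraries and 14.02 and 1.35 in WT libraries, with 0 of 2 called and Msln at 0 in WT B. The part of these cell types in the values of Bax, Bak1, Bok, Bid and Bcl2l1 was not tested.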

How the data were processed

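Polyadenylated liver RNA was sequenced before and after m6A precipitation, with 2 libraries in each of 4 groups. Per the submitters' processing notes, the authors used HISAT2 2.1.0, the mm10 build and DESeq2 1.18.1. For the counting of reads, the annotation and the calling of peaks, the tool is not stated (not given in the sources used here). Deposited were a table that compares the input libraries, and a list of peaks for each genotype. Per the file headers, the table holds a mean per gene (a signal, counts divided by size factors), a log2 change with its standard error, a Wald statistic (a score), and raw and adjusted p-values. In the deposited peak lists enrichment is taken as a ratio of precipitated over input RNA, and the second value as a p-value, with no statement of adjustment.

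The digits of each deposited mean, with its log2 change and standard error, were searched for the whole read counts that give them, which returned counts per library for 15932 genes (98.8%). The search was tested on simulated data first. The 181 genes above a mean of 10000 were left out. Levels are counts over the authors' size factors, which were inferred from the digits of the deposited means. They were 1.25 for KO A, 1.18 for KO B, 0.927 for WT A and 0.743 for WT B. Limma 3.58.1 with a trend on log2(normalized count + 1) over 14056 genes, tested on simulated data, served as an alternative, with other scalings, pseudocounts, filters and left-out libraries. Intervals are 95% Wald intervals, and cover only the spread between libraries.

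The members and lists were chosen with earlier results of these data known. All members, Mettl14 and all genes of the wider family are named; other lists give up to 4 called genes with the smallest adjusted p, and each called member its 2 nearest genes. One gene that this rule names is not reported here.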

Additional observations from a re-analysis of the deposited data

How the results depend on the processing

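Across limma, another pseudocount, a minimum mean count of 10, total-count scaling and the left-out libraries, the log2 changes of Bax, Bak1, Bok, Bid, Bcl2, Bcl2l1 and Mcl1 stayed positive and that of Bmf negative. The number of members called higher in KO was 5 in the authors' deposited table, 6 in limma, 7 with total-count scaling, 4 at an adjusted p under 0.01 or a change of at least 2-fold, and 0 to 6 with 1 library left out. It was 0 without KO A or KO B, where limma called no gene at all, and DESeq2 was not rerun. There the lone KO library is assumed to vary like the WT libraries. The number called lower was 0 in the authors' deposited table, 1 (Bad) in limma, with a pseudocount of 5 and with a minimum mean of 10, and 0 to 2 with 1 library left out. Under total-count scaling the median log2 change was 1.53 for pro-death members, against 0.71, and 1.79 for survival members, against 1.02, while that of all genes moved to 0.87. The change of Bad turned to 0.25 and that of Bcl2l11 to 0.60 under that scaling, and that of Bcl2l11 to 0.20 without KO B; the cause was not tested. Peak counts in members were 13 in KO and 9 in WT at the authors' p under 0.001, and 11 in KO and 9 in WT at an enrichment of at least 4. No paired analysis was possible because the recovered libraries carry no replicate number. Depth limits Bcl2, Bcl2l11 and Bmf most, with 20 to 110 reads per library.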
